A study of Homo sapiens with 4 samples.

Results

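The baseline gene expression profile of EGF-treated HuCCT1 cells was described from 4 single-colour Agilent arrays, with 1 array for each of 4 transfections. HuCCT1 is a human cell line established from an intrahepatic cholangiocarcinoma, a cancer of the bile duct epithelium. The cells were transfected for 24 h at 30 nM with either an siRNA or a miRNA precursor. The siRNA cultures received siGRB2-2, which is directed against GRB2, or the siRNA negative control. The precursor cultures received Pre-miR-376c, a mimic of the mature miR-376c-3p, or the Pre-miR negative control. All 4 cultures were then given EGF at 5 ng/ml for 24 h in medium with 0.1% serum, so no array shows the cells without EGF or without a transfected RNA. A gene's level was the log2 processed signal of its probe minus the 75th percentile of that array, taken as the median over the 4 arrays. A level of 0 therefore equals the 75th percentile of all spots. A gene was called detected on an array where the scanner software had marked most of the spots of a probe as well above background. Of 19479 genes with a named probe, 13619 (69.9%) were detected on all 4 arrays by the same probe and were ranked from 1, the highest. A further 4203 genes (21.6%) were detected on no array, and 1657 (8.51%) on some arrays only, a class that also takes in 4 genes seen on every array but by different probes. These shares over all genes stand as the background for every list and family below.

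Bile ducts are lined by cholangiocytes, simple epithelial cells that hold keratins 7 and 19 beside the keratins 8 and 18 of all simple epithelia, and that share an embryonic precursor with hepatocytes. EGF binds the receptor EGFR, whose phosphorylated tail recruits the adaptor GRB2, directly or through SHC1. GRB2 brings the exchange factors SOS1 and SOS2 to RAS, and RAS starts the RAF, MEK and ERK kinase relay that ends in transcription of immediate early genes and their feedback inhibitors. The levels of these genes, and of the markers of bile duct and other cells, were read as a description of the cells after transfection and EGF, over all 4 transfections.

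The miRNA of the mimic is shown because it defines 1 of the 4 cultures. RefSeq places the mature form on GRCh38.p14 at chr14:101039732-101039752, on the plus strand, within the imprinted 14q32 region described further on. It is 21 bases long, and the capitals mark its seed, bases 2 to 8 from the 5′ end.
hsa-miR-376c-3p: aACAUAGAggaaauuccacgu

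The array of the siRNA negative control stood apart from the other 3. Across the ranked genes, its Spearman correlation with the other arrays was 0.981 to 0.984, against 0.993 to 0.994 among those 3, and its median absolute difference in level from them was 0.34 to 0.39 log2 units, against 0.16 to 0.19. The 75th percentile signal was 1719 on that array and 1995 to 2689 on the others, highest on the Pre-miR negative control array. Detection went with brightness at its ends, from 13892 genes on the siRNA negative control array to 14872 on the Pre-miR negative control array. Without the siRNA negative control array, 13951 genes were detected on all remaining arrays and 4298 on none. GRB2, the gene that siGRB2-2 targets, had a level of -0.65 with siGRB2-2 against -0.10 with its negative control, and of 0.07 with Pre-miR-376c against 0.62 with the Pre-miR negative control. It was lowest on the array labelled siGRB2, for which the paper names the duplex siGRB2-2. With 1 array per transfection no difference between transfections was tested, and the range over the 4 arrays, which holds transfection and array differences together, serves below as the spread of a level.

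The level of the ranked genes fell from 8.29 for KRT19 to -6.20 for the last gene, with a median of -0.45. The middle 50% of genes lay between -2.59 and 1.43, and 1% lay above 6.36. Signal was concentrated in few genes. On each array, signal was summed over the ranked genes alone, with 1 probe per gene. The 100 brightest genes held 21.6% to 24.7% of that sum, and the 1000 brightest held 66.3% to 68.4%. The genes detected on no array clustered near the scanner's floor, with a median level of -8.38. Genes detected on some arrays only lay between these groups at a median of -6.57. A rank sets the signals of different probes side by side and so carries differences in how well each probe binds, and it was read as an order of probe signals and not of molecules per cell.

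**Figure D1:**
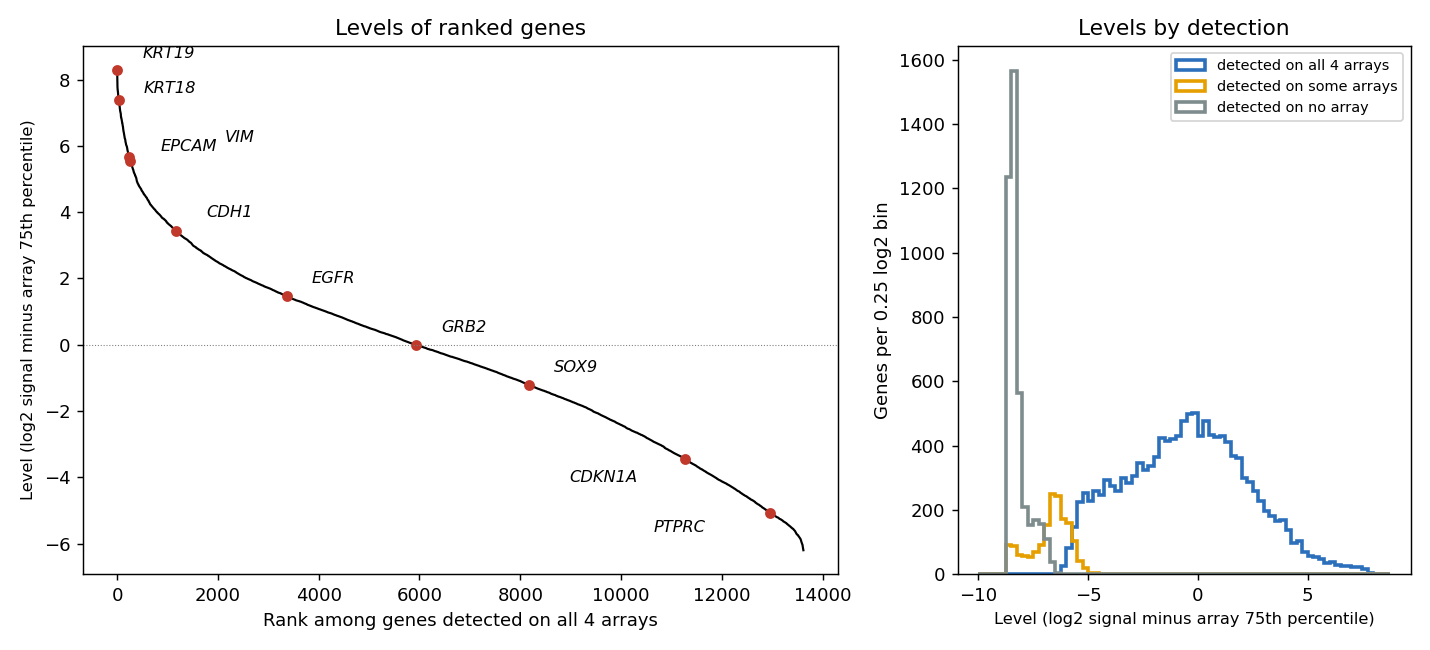
Left, the level (log2 signal minus the array's 75th percentile, median of 4 arrays) of each of 13619 genes detected on all 4 arrays against its rank, with named genes in red. Right, the number of genes per 0.25 log2 bin for the 3 detection classes, where genes detected on no array pile up near -8.38 and ranked genes spread around -0.45.

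The 25 highest-ranked genes were mostly genes of the translation machinery. Of these 25, 16 encode cytosolic ribosomal proteins, among them RPS2 at rank 2 (level 8.22), RPL10 at rank 4 (7.78, with 1 of its 4 probes at -3.20), RPS27 at rank 5 (7.78) and RPL23A at rank 6 (7.77). EEF1A1, the elongation factor that brings aminoacyl-tRNA to the ribosome, stood at rank 10 (7.67). Ribosomal protein genes made up 61 of the first 100 ranks and 75 of the first 200. They held 15.7% to 17.4% of the summed signal of the ranked genes on an array. ACTB, the cytoplasmic beta actin, stood at rank 20 with levels of 7.57, 7.53, 7.53 and 7.12 on the arrays of siGRB2-2, its negative control, Pre-miR-376c and its negative control, an order kept wherever 4 values follow a gene. A second ACTB probe read 2.61.

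Keratins of simple epithelium stood at the head of the order. KRT19 held rank 1 with 8.32, 8.49, 8.25 and 7.98, which is 313 times the 75th percentile signal at the median. KRT7 held rank 3 with 8.09, 8.01, 8.06 and 7.65. Their 4 values spanned 0.50 and 0.43. Each of these 2 genes was read from 1 probe with 1 spot per array. These spots were flagged for an outlying background, and spots with that flag were kept for the levels. All 25 genes were lowest on the Pre-miR negative control array, which had the highest 75th percentile, and so were 90 of the first 100 genes. Of the first 1000 genes, 349 were lowest there.

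**Figure D2:**
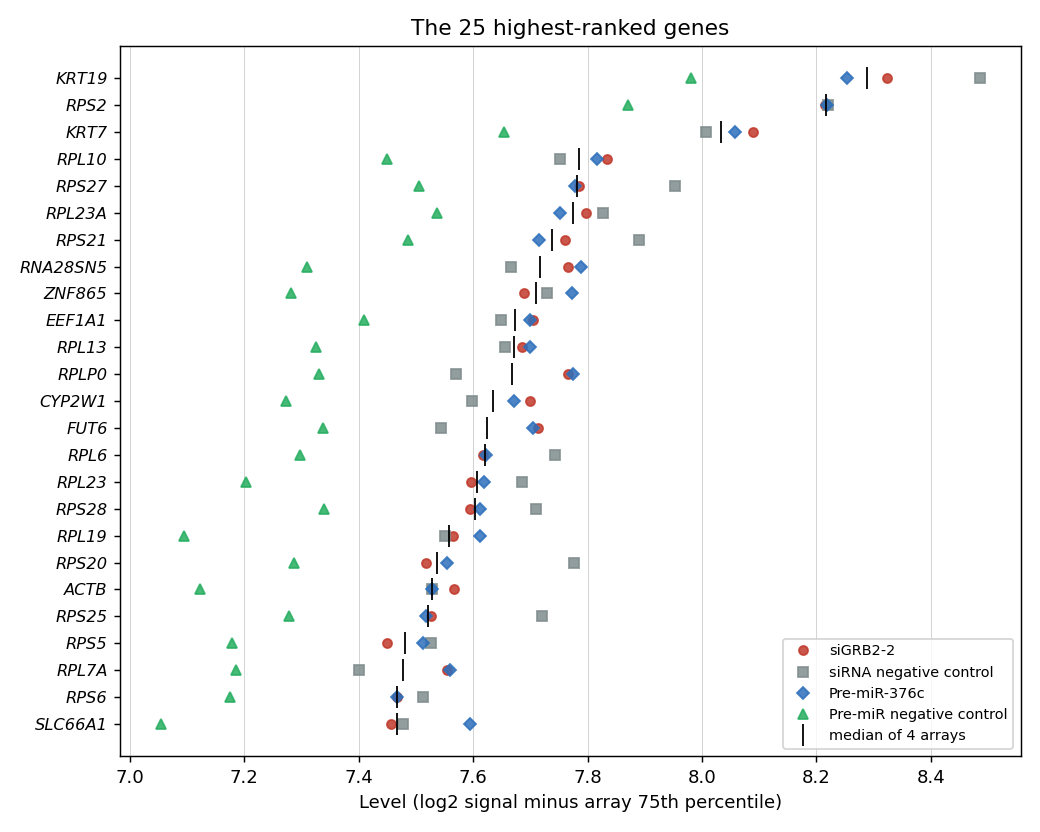
Levels of the 25 highest-ranked genes on each of the 4 arrays (log2 signal minus the array's 75th percentile), with the median as a black bar. Each gene is lowest on the Pre-miR negative control array (green triangles), and the 25 medians run from 8.29 to 7.47.

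Some of the 25 rest on a probe that other probes of the same gene do not match. ZNF865, a zinc finger gene at rank 9, had a level of 7.71 from its ranked probe and -4.50 from its other probe. FUT6, a fucosyltransferase at rank 14, had 7.62 and -1.63. CYP2W1, a cytochrome P450 at rank 13, and SLC66A1, a lysosomal amino acid transporter at rank 25, each have 1 probe, so no second reading exists. The same limit holds for others of the 25, among them KRT19, KRT7, RPS27 and RPS21. On the 4 arrays ZNF865 gave 7.69, 7.73, 7.77 and 7.28, and CYP2W1 gave 7.70, 7.60, 7.67 and 7.27. A probe for 28S ribosomal RNA (RNA28SN5, rank 8) gave 7.77, 7.67, 7.79 and 7.31, while its other probes read 7.71, 3.88 and 3.53. The ribosomal protein gene RPL19 gave 7.57, 7.55, 7.61 and 7.09, also lowest on the Pre-miR negative control array. Whether the ZNF865, FUT6, CYP2W1 and SLC66A1 probes bind another RNA was not tested, and their ranks are given as uncertain. Of 3974 ranked genes with several probes, 668 (16.8%) had probes more than 5 log2 units apart, and among the 64 such genes in the top 1% of ranks the count was 17 (26.6%). The rank takes the highest detected probe, so a gene's place is an upper reading wherever its probes disagree.

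Beyond KRT19 and KRT7, keratins of several epithelia were measured. KRT18 stood at rank 30 (7.40) and its partner KRT8 at rank 223 (5.70, 5.78, 5.77 and 5.37), although a second KRT8 probe read 0.19. KRT81, a type II keratin of the hair cortex, stood at rank 142 with 6.68, 6.25, 6.41 and 6.19, and KRT83, another hair keratin, at rank 753 (4.07). Hair keratin genes are close copies of each other, so which of them the probes read is uncertain. KRT10 (3.70) and KRT80 (3.27), named after their values were seen, were the other keratins in the top 10% of ranks, which held 8 of the 54 keratin genes measured. Of 15 markers of basal and squamous epithelium, 10 were ranked (66.7% against 69.9% of all genes), 1 was detected on some arrays and 4 on none. KRT15, of basal cells, was the highest at 2.33, then SERPINB5 (1.16), SPRR1A (-0.37) and the desmosomal cadherin DSG3 (-1.50). KRT17 (-2.31) and KRT14 (-2.90) stood lower, and KRT5, KRT6A, KRT6B and TP63, the regulator of basal cells, were detected on no array.

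Of 14 cholangiocyte markers with a probe, 11 were detected on all 4 arrays and 3 on none, shares of 78.6% and 21.4% that lie near the background of 69.9% and 21.6%. The list split in its levels. EPCAM, an epithelial adhesion molecule, was at 5.35, 5.59, 5.67 and 5.47 (rank 261). CD24, a surface glycoprotein, was at 4.20 (rank 677), and the annexin ANXA4 at 2.68 (rank 1814). The other ranked members reported here were below the median of ranked genes. SOX9, the transcription factor of the developing bile duct, read -1.19, -0.55, -1.23 and -1.29 (rank 8169). The water channel AQP1 was at -2.33, the progenitor surface protein PROM1 at -3.73 and the chloride channel CFTR at -3.94. SPP1 (osteopontin), SCTR (the secretin receptor of bile duct cells) and ONECUT1 (HNF6) were detected on no array. The 2 bile duct keratins, EPCAM and CD24 were thus high, while SOX9 was low and the secretin receptor was at the floor (-8.32).

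All 15 pan-epithelial markers were detected on all 4 arrays, and 15 of 15 lay in the upper 50% of ranks. Their median rank percentile, where 100 is the highest gene and 50 the middle, was 91.5, with 90.1 to 92.0 on the single arrays. CLDN4, a tight junction claudin, was at 6.02 (rank 180), its relative CLDN7 at 3.82, and the desmosomal plaque protein DSP at 3.64. CDH1, the adherens junction cadherin, read 3.38, 4.10, 3.51 and 3.32 (rank 1164). The splicing regulators ESRP2 (1.64) and ESRP1 (0.21) and the transcription factor GRHL2 (-0.39) were the lowest of this list together with occludin (OCLN, 0.41). The summed signal of the list was 367 to 444 times the 75th percentile.

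Of 20 hepatocyte markers, 5 were detected on all arrays, 2 on some and 13 on none (65.0% against 21.6% of all genes). Albumin (ALB) read -8.29, -8.17, -8.30 and -8.81. The apolipoprotein APOB (-8.43), transthyretin (TTR, -8.49), alpha-fetoprotein (AFP, -8.60) and the hepatocyte regulator HNF4A (-8.32) were likewise detected on no array. SERPINA1, the alpha-1 antitrypsin gene, was the exception in level with 2.27, 1.80, 2.02 and 2.06 (rank 2515). ASGR1 (-3.34), APOA1 (-3.86), CPS1 (-3.93) and ASGR2 (-5.62) were the other ranked members. The defining hepatocyte genes were thus at the floor on all 4 arrays, and SERPINA1 carried most of the list's summed signal of 3.87 to 5.16 times the 75th percentile.

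The remaining marker lists stood for tissues other than liver and bile duct. Of the endothelial markers 2 of 10 were ranked, led by VWF (-2.66), and KDR and ERG were detected on no array. Among fibroblast and stellate cell markers 5 of 14 were ranked (35.7%). These were DES (-2.16), ACTA2 (-2.52), the collagen gene COL1A1 (-2.59), LUM (-3.45) and POSTN (-5.44). Among the others, COL1A2, COL3A1, DCN and PDGFRB were detected on none. Muscle and adipocyte markers gave 1 of 8 (12.5%, ACTA1 at -5.76), neural and neuroendocrine markers 3 of 10 (30.0%) and pancreatic markers 4 of 10 (40.0%). Mesothelial markers gave 5 of 8 (62.5%), near the 69.9% of all genes. Leukocyte markers gave 7 of 13 (53.8%), and 15.4% were undetected, against 69.9% and 21.6% of all genes. CD79A was the highest at 0.21, -1.12, 0.30 and 0.06, and the pan-leukocyte gene PTPRC was at -5.06. A second PTPRC probe, at -5.83, was also detected on all 4 arrays, and the remaining ones, at -8.22 and -8.58, on none. Gastrointestinal markers gave 8 of 15 (53.3%), all at or under -1.77. The intestinal regulator CDX2 read -4.58, while villin (VIL1), CDH17 and PDX1 were detected on none. Summed signal stayed at 0.04 to 2.70 times the 75th percentile in each list of this paragraph, against 583 to 739 for the cholangiocyte list, most of it from KRT19 and KRT7 (313 and 262 times at the median). A weak probe signal and a low level in all cells cannot be told apart from a few cells with a high level in RNA of a whole culture.

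HuCCT1 cells also held transcripts of genes known from epithelial to mesenchymal transition. VIM, the intermediate filament protein of mesenchymal cells, read 5.42, 6.24, 5.45 and 5.86 (rank 242), close to EPCAM in the order. CDH2, the N-cadherin gene, read 3.31, 3.92, 3.14 and 2.72 (rank 1325), below CDH1 on each of the 4 arrays. The transcription factors that drive this transition stood lower. SNAI2 was at -0.41, SNAI1 at -2.97 and ZEB1 at -3.36, ZEB2 was detected on some arrays only, and TWIST1 on none. Fibronectin (FN1) was at -4.58, and the matrix protease MMP2 was detected on no array. In all, 7 of 11 genes were ranked, a share of 63.6% against 69.9% of all genes. Their median rank percentile was 31.1, below the middle, and 2 of them, VIM and CDH2, lay in the top 10%.

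Among 25 transcription factors of liver and bile duct, 16 were ranked (64.0% against 69.9% of all genes). TEAD1, a partner of YAP1, was the highest at 3.08 (rank 1461). The epithelial factors ELF3 (1.88) and KLF5 (1.80), the endodermal factor GATA6 (1.76) and the coactivator YAP1 (1.56) followed, and FOXA2 was at 0.58. HNF4A, ONECUT1, PROX1 and CEBPA were detected on no array. ELF3 ranged from 1.61 to 2.60 over the arrays and KLF5 from 1.55 to 2.45, so these neighbours in the order do not differ beyond their spread. Of 11 mucin genes, 5 were ranked (45.5%), led by the membrane mucins MUC4 (1.43), MUC1 (0.23) and MUC16 (-0.36). MUC5B, MUC13, MUC15 and MUC17 were detected on none.

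Components of the EGF pathway were present from receptor to target genes. EGFR read 1.25 to 1.70 over the 4 arrays (rank 3364) and ERBB2, its partner without a known ligand, 1.35 to 1.86 (rank 3339). These levels overlap. Other EGFR probes read -0.31 and -3.26. ERBB3, whose kinase is nearly inactive, was at 0.94, -0.09, 0.94 and 0.87 (rank 4311), lowest on the siRNA negative control array, and its other probes read -0.66 and -6.26. ERBB4 was detected on no array by either of its probes (-7.91 and -8.52). Among the ligands, AREG (amphiregulin) stood far above the others with 4.84, 5.75, 5.38 and 5.18 (rank 317), and a second probe read 3.90. EREG (epiregulin) followed at 1.10, 2.45, 1.71 and 1.70 (rank 3010). Then came HBEGF (-0.50) and TGFA (-0.83), with HBEGF above TGFA on each array, NRG1 (-2.08) and BTC (-2.37). The EGF gene itself was detected on some arrays only (-6.54), and EPGN and NRG4 on none. AREG and EREG were both highest on the siRNA negative control array and lowest on the siGRB2-2 array.

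All 12 genes of the GRB2 adaptor group were ranked, with a median level of -0.11, near that of all ranked genes (-0.45). PTPN11, the SHP2 phosphatase, was the highest at 1.69, 1.80, 1.96 and 1.84 (rank 2828). SHC1 followed at 1.77, 1.80, 1.51 and 1.59 (rank 3050), with a second probe at -3.92. GRB2 itself held rank 5936 of 13619 at a median of -0.01, close to the 75th percentile of all spots. The exchange factor SOS2 was at -1.02 and SOS1 at -3.46, with SOS1 below SOS2 on all 4 arrays. The docking protein GAB2 was at 0.58 and GAB1 at -4.70 (rank 12621), the lowest of the group.

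Of 12 kinase relay genes, 11 were ranked, and only the scaffold KSR1 was detected on some arrays alone. MAP2K1 (MEK1) was the highest at 2.59, 1.89, 2.47 and 2.14 (rank 2207). HRAS was at 0.53 and NRAS at -0.02, and their 4 values did not overlap. BRAF was at -1.80 and MAPK3 (ERK1) at -2.14, -3.56, -2.55 and -1.96, lowest on the siRNA negative control array. All 20 genes of ERK output were ranked at a median rank percentile of 57.1. MYC was the highest at 3.72, 4.16, 4.07 and 4.06 (rank 755), followed by the stress gene IER3 (3.47) and the ERK phosphatase DUSP6 (2.86, from 3 arrays because its spot with Pre-miR-376c was marked as an outlier). CCND1, cyclin D1, read 0.92, -0.14, 0.89 and 0.52. The feedback inhibitors SPRY2 (-0.79), SPRY1 (-1.41) and SPRY4 (-1.74) stood in the lower 50%. The immediate early genes EGR1 (-1.21) and FOS (-3.52, rank 11347) were low at this time, 24 h after EGF, and FOS was the lowest of the 20. Its family member FOSL1 was at 1.43.

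**Figure D3:**
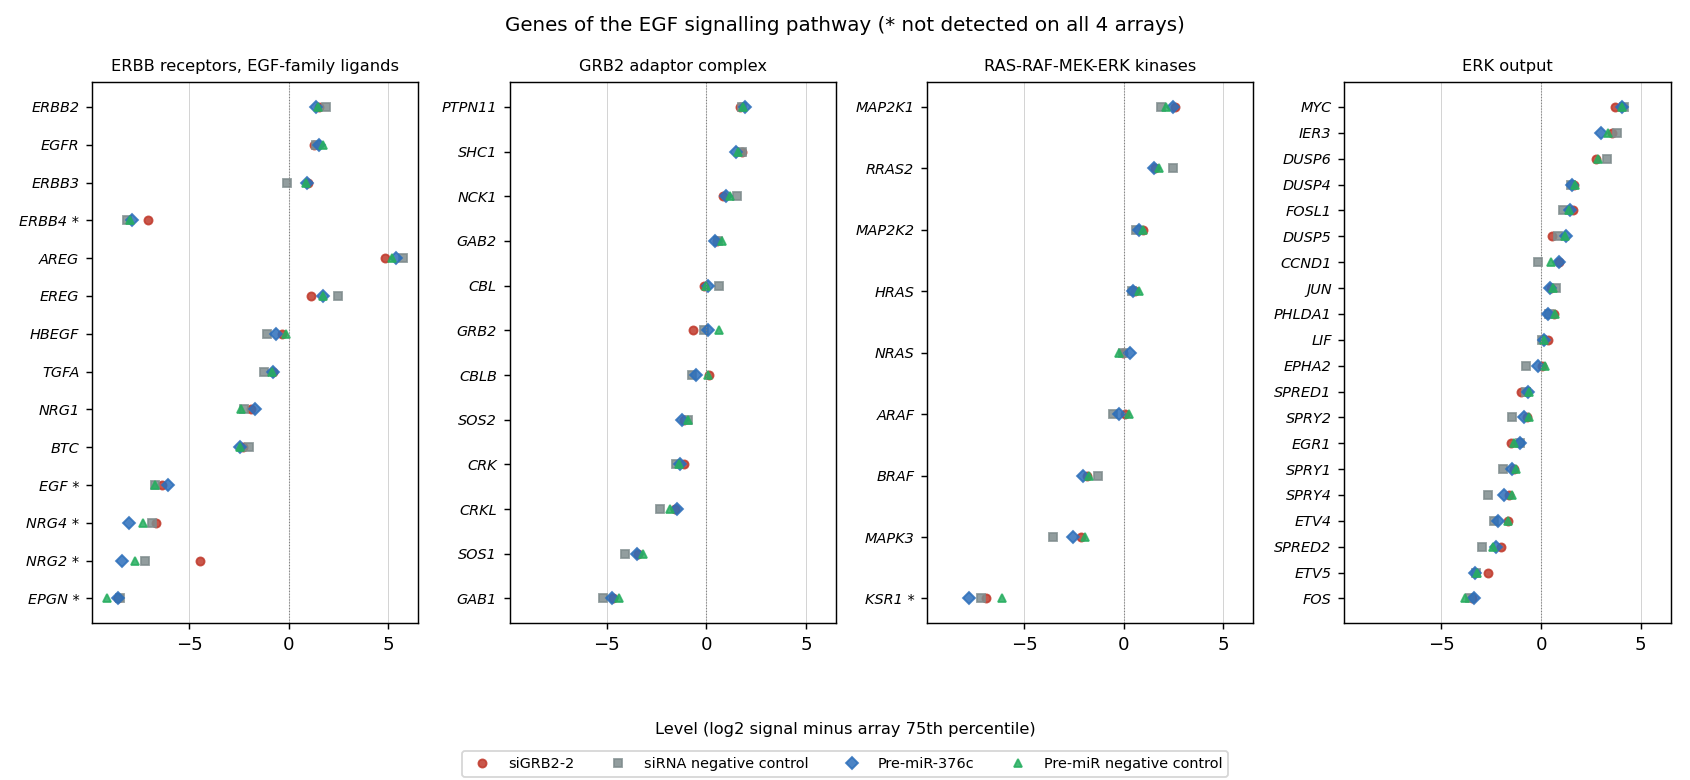
Levels of the genes reported here among ERBB receptors, EGF-family ligands, the GRB2 adaptor group, kinase relay genes and ERK output genes on each of the 4 arrays (log2 signal minus the array's 75th percentile), ordered by the median within each list, with genes not detected on all 4 arrays starred. AREG (median 5.28) and MYC (4.07) lie farthest to the right, and GRB2 runs from -0.65 with siGRB2-2 to 0.62 with the Pre-miR negative control.

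Other receptor tyrosine kinases included 2 genes well above EGFR in signal. MET, the hepatocyte growth factor receptor, read 5.03, 5.97, 5.16 and 5.26 (rank 330), and AXL, a receptor of GAS6, 4.46, 3.93, 4.35 and 4.22 (rank 642). MST1R (1.88), DDR1 (1.57, with a second probe at -5.15) and IGF1R (1.22) lay near EGFR, and FGFR2 was at -3.63. KIT, ALK, ROS1 and PDGFRB were detected on no array, and 16 of 22 genes were ranked (72.7% against 69.9% of all genes).

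Among proteases and inhibitors tied to migration, 15 of 20 were ranked and 4 lay in the top 10%. PLAU, the urokinase plasminogen activator, read 6.10, 6.51, 6.29 and 6.55 (rank 132), and a second probe read 1.96. TIMP2, a metalloprotease inhibitor, was at 5.63 (rank 246) and the tissue plasminogen activator PLAT at 3.54. MMP7, matrilysin, read 2.35, 3.92, 3.52 and 2.89 (rank 1343), the widest spread among these 4. MMP9, gelatinase B, was low at -3.36, -2.05, -3.49 and -2.32 (rank 10547). MMP2, MMP3 and TIMP3 were detected on none. Of 17 integrins, 13 were ranked (76.5%). ITGB4, the hemidesmosome subunit that binds laminin, was the highest at 5.46, 5.17, 5.12 and 5.35 (rank 322), then ITGAV (2.93) and ITGB5 (2.44), and the leukocyte subunits ITGAL and ITGAX were detected on none.

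In the interleukin 1 and chemokine list, 16 of 19 genes were ranked (84.2% against 69.9% of all genes). IL1RN, the receptor antagonist, was the highest at 3.08, 3.92, 3.78 and 3.85 (rank 901), although its other probe, at -2.04, lay below IL18 and CXCL5. Next came IL18 (2.95) and CXCL5 (2.13). IL1B read -1.21, -0.04, -1.70 and -0.29 (rank 7390), and it spanned 1.66 log2 units. CXCL1 was at 0.18 and CXCL8 at -5.05. Among antigen presentation genes 16 of 18 were ranked (88.9%). The class I genes B2M (5.64), HLA-C (5.24) and HLA-B (5.10) stood in the top 10%. HLA class I genes share sequence, so their separate levels are uncertain. Class II genes were low, from HLA-DMA (-1.52) to CD74 (-2.63), and HLA-DRA was detected on no array.

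All 24 proliferation genes were ranked, 22 of them in the upper 50%, at a median rank percentile of 79.3. The helicase subunit MCM7 read 5.40, 5.16, 5.45 and 5.20 (rank 313) from one probe and -1.75 from the other, survivin (BIRC5) 4.69, 5.33, 4.77 and 4.73 (rank 450), and MKI67, the Ki-67 antigen, 1.54 (rank 3255). PLK1 (-0.67) and CCNE2 (-0.68) were the lowest. All 15 genes of the list of cell cycle inhibitors and stress response genes were ranked too. SFN, the epithelial 14-3-3 sigma protein, read 6.35, 6.19, 6.36 and 6.11 (rank 148), and CDKN2A, which encodes p16 and ARF, 4.83, 4.56, 4.71 and 4.49 (rank 492). CDKN1A, which encodes the inhibitor p21, read -3.48, -4.72, -3.42 and -3.22 (rank 11266), and the ubiquitin ligase gene MDM2 was at -1.96. SFN stood above CDKN2A, and CDKN2A above CDKN1A, on all 4 arrays. All 16 genes known to be mutated in cholangiocarcinoma were ranked, including IDH1 (2.22), BAP1 (-0.56), ARID1A (-1.57) and SMAD4 (-1.86, spanning 0.14 over the arrays). Arrays of this kind do not show whether a gene is mutated.

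Glycolysis genes stood high, with 19 of 20 ranked, 11 in the top 10% and a median rank percentile of 96.4. GAPDH read 7.34, 7.27, 7.22 and 7.08 (rank 44). The A subunit of lactate dehydrogenase (LDHA) was at 6.56, 6.65, 6.44 and 6.33 (rank 122), with PGK1 (6.46), the lactate exporter SLC16A3 (6.44) and TPI1 (6.18) close by. LDHB, the B subunit, was the exception. Both of its probes were detected on no array, at -8.39 and -8.57, where the median of all undetected genes was -8.38. The glucose transporter SLC2A1 was at 4.12 and the hexokinases HK2 and HK1 at 1.78 and 0.82, where a second HK2 probe read -7.22.

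S100 calcium-binding proteins split by member, with 12 of 18 ranked (66.7% against 69.9% of all genes). S100A6 read 6.70, 6.94, 6.78 and 6.86 (rank 85) and S100A10, the partner of annexin A2, was at 6.21 (rank 155). S100A4 was at -1.95, S100P at -4.76, and S100A8, of myeloid cells, was detected on no array. Of 23 cytoskeletal genes 22 were ranked and 19 lay in the top 10%. Beside ACTB these included the alpha tubulin TUBA1B (7.11), ANXA2 (6.73, with a second probe at 1.57), ACTG1 (6.01) and the bundling protein FSCN1 (4.74), and villin was the 1 undetected gene. All 10 translation elongation and related initiation genes were ranked, from EEF1A1 down to EEF1A2 (-2.10), the form of muscle and nerve.

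The 14q32 region that holds the miR-376c gene also holds imprinted genes. Of the 6 with a probe, 5 were ranked. MEG3, a maternally expressed long non-coding RNA, read -0.30, -1.39, -0.43 and -0.68 (rank 7021), and its second probe read -4.60. DLK1, the paternally expressed Notch ligand homologue, was at -3.96, BEGAIN at -4.49 and DIO3 at -4.76. Second probes of DLK1 (-7.11) and DIO3 (-8.39) were detected on no array. RTL1 was detected on some arrays only. Of 16 genes of miRNA processing and silencing, 14 were ranked: the nuclear RNase DROSHA was the highest at 3.01 (rank 1496), then AGO2 (1.72), the slicing Argonaute, and DICER1 (1.29). The germline genes PIWIL1 and PIWIL2 were detected on no array. MicroRNA levels themselves were not measured by these probes.

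HOX genes, whose clusters pattern the body axis, differed between clusters. In the HOXA cluster 7 of 11 genes were ranked, in HOXB 7 of 10, in HOXC 2 of 9, and in HOXD 0 of 9, where 7 were detected on no array and 2 on some. HOXB6 was the highest at 3.44, 3.87, 3.23 and 3.53 (rank 1133). HOXB5 (1.36), HOXB9 (1.31) and HOXA10 (0.95) followed, and a second HOXA10 probe was undetected at -8.58. HOXB7, which lies between HOXB6 and HOXB8 in its cluster, was detected on no array (-8.58, -8.46, -8.57 and -7.07).

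Detection by gene family ran from nearly complete to sparse. All 38 respiratory complex I subunits, 85 of 86 cytosolic and 78 of 79 mitochondrial ribosomal protein genes, 39 of 41 proteasome subunits and 71 of 77 histone genes were ranked. The cytosolic ribosomal protein genes had a median level of 7.02 over those ranked, and 81 of them lay in the top 10%. The 1 undetected member was RPL39L (-8.27), a copy of RPL39 that is known from testis. Complex I subunits had a median of 3.64 (highest NDUFS5, 6.12) and proteasome subunits 3.13 (highest PSMD2, 6.06). Zinc finger ZNF genes were ranked about as often as all genes (74.4% against 69.9%), but low, with 78 of the 374 ranked in the upper 50%. At the other end, 53 of 365 olfactory receptor genes (14.5%) were ranked and 243 (66.6%) were undetected. Their highest member was OR2H1 (0.84, -0.40, 0.83 and 0.34). Beta-defensins gave 6 of 30, MAGE genes 8 of 28 (highest MAGED1, 0.20), UDP-glucuronosyltransferases 4 of 13 and cytochromes P450 23 of 54. Claudins gave 13 of 23, led by the pair of epithelial barrier claudins CLDN4 and CLDN7 (3.82).

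By RefSeq gene type, 71.6% of 18096 protein-coding genes were ranked, against 41.7% of 851 long non-coding RNA genes and 56.4% of 482 transcribed pseudogenes. Ranked long non-coding RNA genes had a median level of -2.85 and protein-coding genes -0.37. LINC genes followed the same pattern, with 90 of 279 ranked. Ranked genes spanned a median of 26.7 kb in the genome, partly detected genes 21.3 kb and undetected genes 19.7 kb. Within the ranked genes the top 10% were the most compact at 13.4 kb, genes in the middle of the ranks reached 34.9 kb, and the bottom 10% fell back to 20.9 kb.

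The edge between the classes was narrow. The lowest ranked genes were ZNF483 (-6.17), RPS6KL1 (-6.17), OR1L3 (-6.17), FOXS1 (-6.18) and KIF27 (-6.20). The undetected genes nearest to them were BCL11B (-6.24), KIAA1614 (-6.42), CSH1 (-6.47), TTC24 (-6.48) and FLYWCH2 (-6.50). Of the partly detected genes, 885 were seen on 1 array, and for 523 of these it was the Pre-miR negative control array, the brightest. The siGRB2-2 array was the only one for 161, Pre-miR-376c for 106 and the siRNA negative control for 95.

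Levels of a gene over the 4 arrays lay within a median range of 0.54. The range over 3 arrays was 0.30 without the siRNA negative control array and 0.47 to 0.48 with any other array left out. A range over 1 occurred in 12.6% of ranked genes with all 4 arrays, in 2.29% without the siRNA negative control array and in 9.46% to 10.1% with another array left out. The range was smallest at the top, with a median of 0.44 in the top 10% of ranks and 0.64 in the bottom 10%. Of the 100 highest genes on each array, 81 were common to all 4, 89 to the 3 arrays other than the siRNA negative control, and 82 to 83 to the remaining 3 when another array was left out. In the top 10%, the smallest ranges belonged to IP6K1 (4.47 to 4.49), MRPS21, ATXN2L, TKT, the transketolase of the pentose phosphate pathway (5.96 to 6.02), and NR2F6. The widest belonged to POTEF, MMP7, MT1H, FTL and PLAAT3. POTEF, an actin-related gene that shares sequence with ACTB, read 3.90, 1.82, 3.15 and 3.66, the metallothionein MT1H 4.93, 3.43, 4.77 and 4.82, and ferritin light chain (FTL) 4.70, 3.47, 4.51 and 4.86. These 3 were lowest on the siRNA negative control array, whereas PLAAT3 (5.86, 6.95, 5.58 and 6.02) was highest there.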

How the data were processed

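HuCCT1 RNA (200 ng) was labelled in 1 colour and hybridised to human 4×44K v2 arrays. The authors deposited spot intensity values and flags of Agilent Feature Extraction (10.7, per the submitters' notes), and a table of log2 values shifted to the 75th percentile in GeneSpring GX. That log2 table differed from the scanner values by a constant, within 0.01 for 99.5% of the probes on each array, and served as an alternative. What further background treatment preceded the processed intensity is not given in the sources used here.

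Processed signals of non-control spots were log2-transformed and shifted by the array's 75th percentile in Python (3.11.15, with pandas 2.3.3 and numpy 2.4.6). Figures were drawn with matplotlib 3.10.9. Outlier-flagged spots (289 to 329 per array) were left out of levels but kept for detection, which required over 0.5 of a probe's spots well above background. Spots flagged only for an outlying background were kept for both. No spot was saturated. Spots of a probe were averaged. A gene took its highest probe among those detected on all 4 arrays, or among all its probes if none was. Accessions named 25419 of 34127 probes (74.5%) through a RefSeq table (GRCh38.p14) that served for names alone because the scanner files name another build. The procedure was tested on simulated data. Normexp (offset 50, on median intensities) used R 4.3.3 and limma 3.58.1.

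Members, lists (35, with 528 symbol entries, of which 518 had a named probe) and 20 families were chosen with earlier results of these data known. Genes named were the 25 highest, list members by role, family leaders and the 5 widest and 5 narrowest ranges in the top 10%. Some listed genes are not reported here by name. No test was made, since each transfection has 1 array. The number of arrays limits precision. A planned comparison of promoter features by detection class was void because a promoter was held for 79.8% of ranked and 74.4% of undetected genes, under the minimum of 80%, and no protein comparison was run. Alternatives covered detection rules, normalization, background, probe choice and left-out arrays.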

Additional observations from a re-analysis of the deposited data

How the results depend on the processing

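The counts of genes detected on all, on some and on no array stayed within 1.5 times of the values reported under every alternative but 1. With the significance flag in place of the well above background flag, undetected genes numbered 2082 in place of 4203. That flag moved 2 of the 8 counts followed under it. The other was the number of members of a list detected on all arrays. Leaving out 1 array gave 13623 to 13951 genes detected on all arrays, 1130 to 1489 on some and 4298 to 4726 on none. Median rank percentiles of all 35 lists were followed, and changes in 5 of them are given here. Leaving out 1 array gave 13.7 to 16.4 for hepatocyte markers. The 2 negative control arrays alone gave 36.7 for the mesenchymal transition genes, against 31.1. The mean over all probes of a gene gave 89.6 for cholangiocyte markers (86.7 reported), 16.8 for hepatocyte markers, 36.5 for mesenchymal transition genes and 47.7 for the GRB2 adaptor group, and the median over probes 89.6, 16.9, 36.5 and 47.7. Normexp gave 51.7 for the GRB2 adaptor group and 42.8 for cholangiocyte markers, the latter because KRT19 and KRT7 were among 23 ranked genes with no value left once spots with an outlying background were dropped. Of the 25 highest genes, 14 stayed among the 25 under the mean over probes, 15 under the median, 16 under normexp and 21 to 25 under the other alternatives. Over 30 single genes the rank percentile moved by a median of 0.15 points and at most 32.6. That median takes in alternatives that shift each array by a constant and so can hardly change a rank. Of 66 followed values, 47 moved under the mean over probes and 44 under the median over probes. A value was taken to move beyond its standard deviation over the arrays, or beyond 1.5 times for a count. Outlier-flagged spots left out of detection, an alternative chosen after seeing the data, gave 13599 genes on all arrays. No paired analysis was possible because each transfection has 1 array.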

Other observations

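Some genes stood high on a single probe although they are known from other tissues. NKX2-5 and LBX1 were picked after their values were seen, and LCE1D leads its family. NKX2-5, a transcription factor of the heart, read 5.61, 5.40, 5.56 and 5.46 (rank 267) on the arrays of siGRB2-2, its negative control, Pre-miR-376c and its negative control. LBX1, a transcription factor of muscle precursors and spinal cord, read 5.56, 5.54, 5.58 and 5.39 (rank 258). LCE1D, a late cornified envelope gene of the epidermis, read 5.86, 5.24, 5.85 and 5.51 (rank 233). Whether these probes bind other RNA was not tested. Below the 25 highest genes, AS3MT (7.26 against -8.58), GPR155 (7.20 against -5.83) and SLC16A12 (6.68 against -7.94) also combined a very bright probe with a dim one.

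A few secreted and surface proteins outside the lists, picked after their values were seen, are given as values only. The laminin chain LAMB3 was at 5.69, beside ITGB4, a subunit of a laminin receptor. TGFBI, an extracellular matrix protein, was at 6.25, the galectin LGALS3 at 6.58, the tissue factor F3 at 5.55 and the hyaluronan receptor CD44 at 5.64. The long non-coding RNA UCA1 was at 5.30, 4.92, 5.58 and 5.52 (rank 288).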
